A study of Saccharomyces cerevisiae with 4 samples.

Results

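The mitochondrial ribosomal protein genes were taken as all probe sets with 1 platform gene symbol made of MRPL, MRPS, RSM or MRP and a number, leaving out MRP8. This gave 67 probe sets for 66 genes, among 9275 non-control probe sets and 5656 named genes in all. They were 34 MRPL genes of the large subunit, 20 genes of the small subunit (9 MRPS and 11 RSM) and 12 genes named MRP. Budding yeast carried either wild-type Snf1 or Snf1-I132G, a form of the kinase that the pyrazolopyrimidine 2NM-PP1 can inhibit. Both groups grew in uracil-free synthetic medium with 2% glucose, were moved to 2% raffinose with 0.05% glucose for 120 min, and then received 25 µM 2NM-PP1 for 40 min. RNA pooled from 3 transformants was put on 2 arrays for each strain, of the type Affymetrix Yeast Genome S98. Every culture had the inhibitor, so the I132G allele itself and inhibition of the kinase cannot be told apart. The labels do not say that the duplicates were separate cultures, so p-values here cover nothing beyond the spread of the 4 arrays, and that spread may be technical.

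Mitochondrial ribosomes translate the few proteins encoded in mitochondrial DNA, which in yeast are mainly membrane subunits of cytochrome bc1, cytochrome oxidase and ATP synthase. Nearly all their proteins are encoded in the nucleus, made in the cytosol and imported. Some have counterparts in bacterial ribosomes, and others are found in mitochondria only. Snf1, the yeast AMP-activated protein kinase, is needed for expression of many genes of respiration when glucose is short. The comparison addressed how the transcripts for this ribosome differed when the kinase was open to inhibition.

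Signals were compared as log2(signal + 16), and differences are Snf1-I132G minus Snf1, so a negative value is lower in Snf1-I132G. On this scale the change of dim genes is understated. A gene was called lower or higher where limma gave a p under 0.05 after Benjamini-Hochberg adjustment over all 6956 probe sets that passed a filter on low signal. The median array signal was 131.9 and 139 in Snf1-I132G and 152 and 161 in Snf1. SNF1 itself read 797 and 889 in Snf1-I132G and 981 and 1015 in Snf1, which did not pass, at -0.24 ± 0.15 log2 units (SE; limma, adjusted p = 0.28). With 2 arrays a group, the precision of each value is limited.

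Few mitochondrial ribosomal protein genes passed the test, and those that did were all lower in Snf1-I132G. Of 65 genes that passed the filter, 56 had a difference below 0, which is 86.2%, against 56.0% of all tested probe sets. The median log2 difference was -0.25, against -0.10 over all tested probe sets. Members are named genes counted at 1 probe set each, the brightest. Over all 5199 named genes tested in the same way the median was -0.16, with 60.1% below 0 and 20.0% called lower. The members' median minus that of named genes was -0.09. Only 6 genes, or 9.23%, were called lower, while 17.5% of all tested probe sets were. None was called higher, against 10.3% of all tested probe sets. On the deposited scale none was higher at an unadjusted p under 0.05 either, while 15, or 23.1%, were lower at that level. Over all tested probe sets 25.9% were lower and 14.9% higher at that level, and 29.1% of named genes were lower. The share called lower was thus below the background of the whole array, although the signs leaned to one side more than on the whole array. No list was tested as a list here.

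No member reached a 2-fold difference in either direction, whereas 9.33% of all tested probe sets were at least 2-fold lower. Differences ran from -0.88 for MRPL35 to 0.33 for MRP7. The 95% interval of the difference lay within 2-fold on both sides for 51 of the 65 genes, among them 50 of the 59 that did not pass. For the other 9 that did not pass, a 2-fold fall lay inside the interval. The remaining gene, MRP35 (bL35m, of the large subunit), was too dim to be tested, at signals of 30.6 and 31.1 in Snf1-I132G and 31.9 and 27.6 in Snf1.

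**Figure D1:**
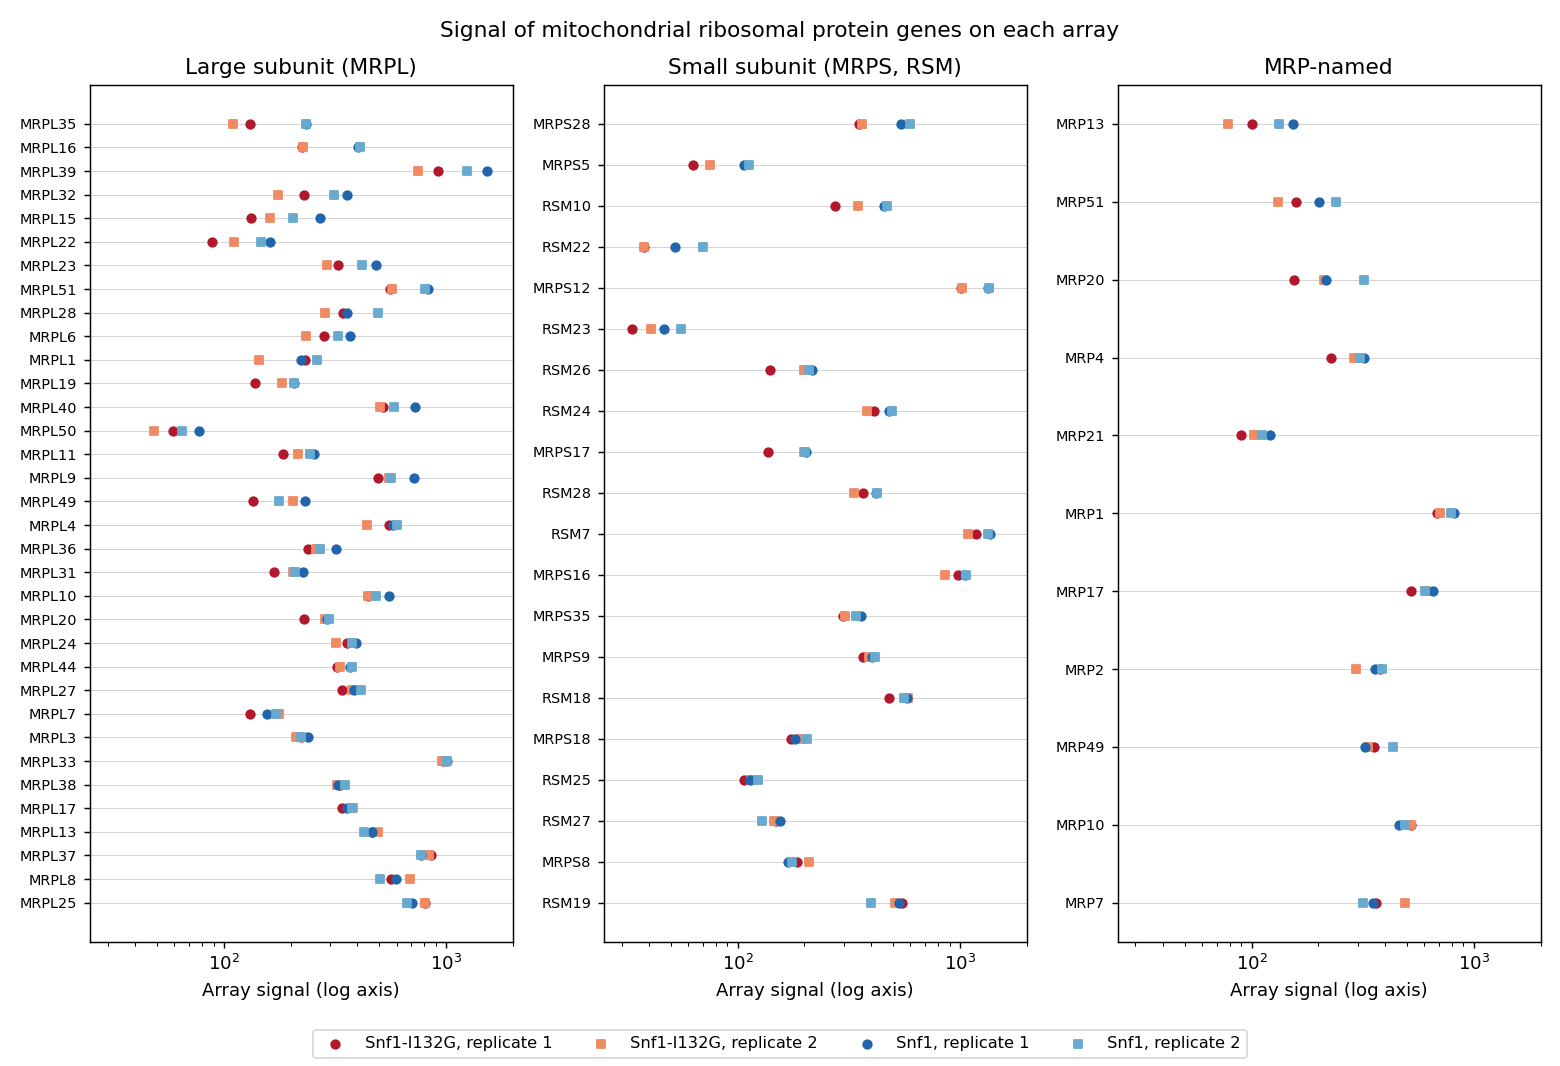
Array signal, on a log axis, of the 65 tested mitochondrial ribosomal protein genes, with 1 point per array and genes ordered by their difference. Red and orange points are the 2 Snf1-I132G arrays and blue points the 2 Snf1 arrays. The 4 arrays of a gene lie close together, and for 45 genes both Snf1-I132G arrays are to the left of both Snf1 arrays.

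Array by array, both Snf1-I132G signals were below both Snf1 signals for 45 of the 65 genes. Among all tested probe sets 41.0% showed that pattern, and among named genes 45.4%. The opposite pattern was seen for 5 genes, against 26.2% of all tested probe sets and 23.9% of named genes. The groups overlapped for the other 15. These patterns were counted on the deposited scale only, on which the signs depended, as given below. An exact two-sided permutation test of 2 arrays against 2 cannot go below p = 0.333, so no single gene was tested that way. The plot of signals by array shows these gaps for each gene.

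The large subunit held 5 of the 6 calls. Of its 34 MRPL genes, all tested, 5 were lower, 0 were higher and 29 did not pass, with a median log2 difference of -0.26. The share called lower, 14.7%, was below the 17.5% of all tested probe sets. At an unadjusted p under 0.05, 8 were lower, or 23.5%, against 25.9% of all tested probe sets and 29.1% of named genes. At that level 0 were higher. Differences were below 0 for 30 of the 34.

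MRPL35 encodes mL38, a mitochondria-specific protein of the central protuberance of the large subunit. Its signals were 131.9 and 110 in Snf1-I132G and 236 and 235 in Snf1. The 2 groups were well apart, and MRPL35 fell by 0.88 ± 0.18 (SE) on the log2 scale, so that Snf1 was 1.84-fold higher (limma, adjusted p = 0.019). MRPL16 encodes uL16m, the counterpart of bacterial L16, near the site where tRNAs bind. It read 225 and 228 in Snf1-I132G and 401 and 412 in Snf1. Its arrays agreed closely within each group, and it fell by 0.80 ± 0.16 (limma, adjusted p = 0.017).

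MRPL39 encodes bL33m, the counterpart of bacterial L33. Signals of 921 and 753 in Snf1-I132G stood against 1538 and 1241 in Snf1. Its replicates spread more, and it fell by 0.72 ± 0.19 (limma, adjusted p = 0.041). MRPL32 encodes bL32m, a protein known for being matured by the m-AAA protease of the inner membrane before it joins the ribosome. It read 230 and 175 in Snf1-I132G and 361 and 315 in Snf1. The groups did not overlap, and it fell by 0.70 ± 0.20 with an adjusted p close to the threshold (limma, 0.049). MRPL51 encodes mL43, a mitochondria-specific protein, and read 558 and 571 in Snf1-I132G against 828 and 804 in Snf1. Its fall of 0.52 ± 0.15 was smaller but its replicates were close, and it too passed narrowly (limma, adjusted p = 0.049).

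The next genes of the large subunit missed the threshold. MRPL15, for the mitochondria-specific mL57, read 133 and 162 in Snf1-I132G and 271 and 206 in Snf1, a difference of -0.63 ± 0.21 (limma, adjusted p = 0.077). Its probe set is of a kind that more than 1 transcript can match. MRPL22, for uL22m of the wall of the exit tunnel, read 88.8 and 111 against 162 and 147, a difference of -0.56 ± 0.19 (limma, adjusted p = 0.081). MRPL23, for uL13m, read 327 and 293 against 486 and 419, a difference of -0.52 ± 0.17 (limma, adjusted p = 0.073). In all 3 genes both Snf1-I132G arrays were below both Snf1 arrays. MRPL23 had about the same difference as MRPL51, which passed, with a larger standard error. MRPL6, for uL6m, differed by -0.41 ± 0.18. MRPL28, for mL40, also differed by -0.41, with an SE of 0.22, as its Snf1 arrays read 360 and 497. MRPL1, for uL1m of the mobile stalk that guides leaving tRNAs, had overlapping groups, at 231 and 144 in Snf1-I132G and 223 and 263 in Snf1. MRPL50, for bL9m, had the lowest mean signal of the tested MRPL genes, 59.0 and 48.8 against 77.0 and 64.7. The groups of MRPL50 did not overlap, and it did not pass, at -0.31 ± 0.20.

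A few large-subunit genes had differences above 0, and none of them passed. MRPL25, for the mitochondria-specific mL59, read 810 and 806 in Snf1-I132G and 702 and 666 in Snf1, a difference of 0.24 ± 0.15 (limma, adjusted p = 0.28). MRPL8, for bL17m, differed by 0.18 ± 0.18, MRPL37, for mL54, by 0.13 ± 0.14, and MRPL13, for mL50, by 0.10 ± 0.16. The sign of the last 3 turned when arrays were centred on hybridization controls. MRPL25 stayed above 0 under all scalings tried, but only just with that centring. MRPL44, for mL53, was the 1 member with 2 probe sets. The brighter one differed by -0.17 ± 0.15 and the dimmer one, at signals of 31.8 to 46.8, by 0.28 ± 0.19. The 2 probe sets thus disagreed in sign, and neither passed. The mean of both was at 0.05, and the brighter one alone was at 0.01 under median centring. The remaining MRPL genes not named here did not pass.

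**Figure D2:**
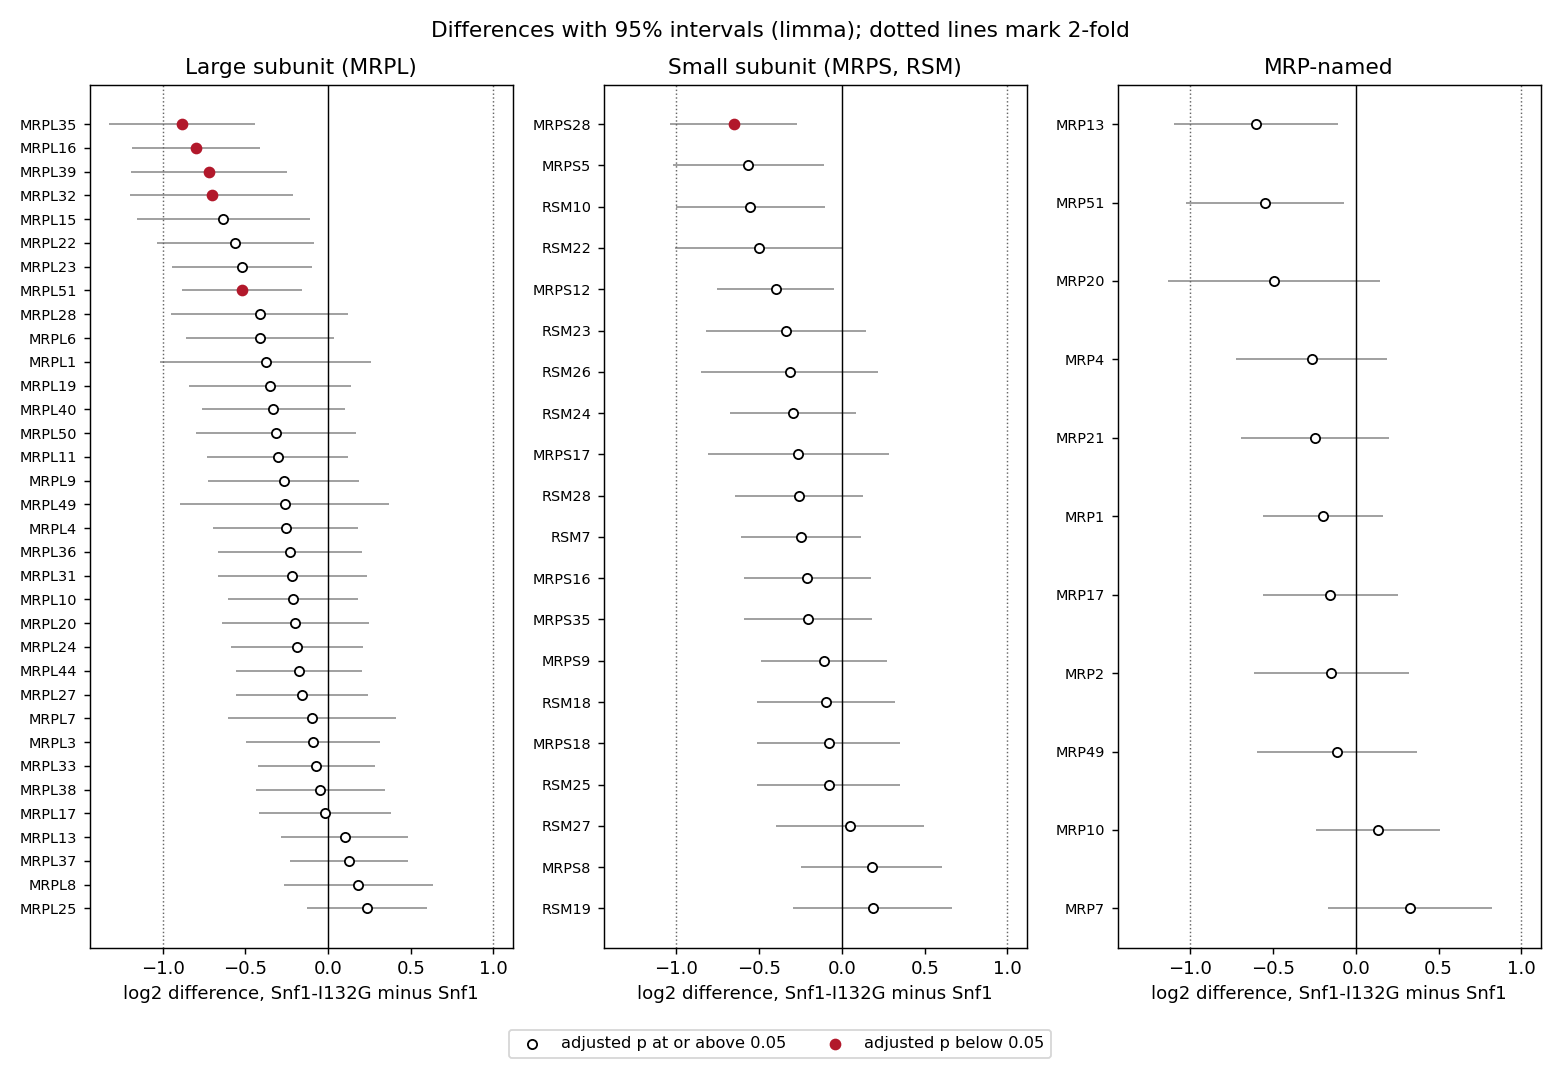
Log2 difference of each tested gene, Snf1-I132G minus Snf1, with its 95% interval from limma. Filled red points are the 6 genes with an adjusted p under 0.05, 5 in the large subunit and 1 in the small. No point lies beyond the dotted lines at 2-fold, and most lie left of 0.

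In the small subunit 1 of 20 MRPS and RSM genes was lower, or 5.0%, 0 were higher and 19 did not pass. Of all tested probe sets 17.5% were lower and 10.3% higher. The median log2 difference was -0.25, close to the -0.26 of the MRPL genes, and 17 of the 20 differences were below 0. At an unadjusted p under 0.05, 5 were lower, or 25.0%, against 25.9% of all tested probe sets and 29.1% of named genes. At that level 0 were higher. MRPS28, for uS15m, the counterpart of bacterial S15, was the 1 that passed. It read 351 and 361 in Snf1-I132G and 544 and 597 in Snf1. The groups were clearly apart, and it fell by 0.66 ± 0.15 (limma, adjusted p = 0.030), which makes Snf1 1.57-fold higher.

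The MRPS and RSM genes with the next largest differences had non-overlapping groups and missed the threshold. MRPS5, for uS5m, read 62.8 and 75.2 in Snf1-I132G and 106 and 112 in Snf1, a difference of -0.56 ± 0.18 (limma, adjusted p = 0.073). MRPS12, for uS12m, a protein of the decoding centre, read 1013 and 1022 against 1339 and 1358, a difference of -0.40 ± 0.14 (limma, adjusted p = 0.091). The replicates of MRPS12 were within a few percent of each other. RSM10, for uS10m, read 275 and 349 against 455 and 470, a difference of -0.55 ± 0.18 (limma, adjusted p = 0.073). RSM22 has no uniform ribosomal name in RefSeq and is related to methyltransferases, so its place in the list rests on its symbol. It was dim, at 38.0 and 37.7 against 52.1 and 69.7, and differed by -0.50 ± 0.20 (limma, adjusted p = 0.12).

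Other small-subunit genes differed less. RSM23, for mS29, whose human counterpart is DAP3, had the lowest mean signal of the group, at 33.4 and 40.7 in Snf1-I132G and 46.6 and 55.5 in Snf1. RSM26, for mS42, which is related to manganese superoxide dismutase, read 140 and 200 against 216 and 209. The low value was that of replicate 1 of Snf1-I132G alone, and the difference was -0.32 ± 0.22. RSM24, for mS35, read 411 and 382 against 480 and 498, a difference of -0.29 ± 0.15. RSM7, for uS7m of the head of the subunit, had the highest mean signal, at 1184 and 1093 against 1367 and 1340, and differed by -0.25 ± 0.15. Neither RSM24 nor RSM7 had overlapping groups, and neither passed. Above 0 were RSM19, for uS19m, at 0.19 ± 0.19, MRPS8, for uS8m, at 0.18 ± 0.17, and RSM27, for mS33, at 0.05 ± 0.18. All 3 were below 0 after centring on hybridization controls, as were RSM19 and RSM27 without replicate 2 of Snf1.

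None of the 11 tested genes named MRP passed, in either direction. At an unadjusted p under 0.05, 2 were lower, or 18.2%, against 25.9% of all tested probe sets, and 0 were higher. With the replicate number as a block, 3 were lower, or 27.3%, against 28.6% of all tested probe sets and 31.8% of named genes. The median log2 difference was -0.20. Their symbols give no subunit. By the uniform names in RefSeq, MRP7, MRP20, MRP35 and MRP49 belong to the large subunit and the other 8 to the small.

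MRP13, for mS44, read 100 and 78.6 in Snf1-I132G and 154 and 133 in Snf1, a difference of -0.60 ± 0.20 (limma, adjusted p = 0.075). MRP51, for bS1m, read 159 and 131.9 against 201 and 240, a difference of -0.55 ± 0.19 (limma, adjusted p = 0.086). Neither gene had overlapping groups. MRP20, for uL23m at the mouth of the exit tunnel, read 156 and 212 against 216 and 320. Its 2 replicates were far apart in both groups, and its difference was -0.50 ± 0.26 (limma, adjusted p = 0.21).

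MRP4, for uS2m, read 229 and 290 in Snf1-I132G and 320 and 307 in Snf1, a difference of -0.27 ± 0.18. MRP21, for bS21m, read 89.6 and 102 against 121 and 112, a difference of -0.25 ± 0.18. MRP1, for mS43, a relative of RSM26 in the same dismutase family, read 684 and 708 against 813 and 791, a difference of -0.20 ± 0.15. In these 3 genes the groups did not overlap, and the gaps were small. MRP17, for bS6m, read 520 and 609 against 656 and 603, a difference of -0.16 ± 0.16. MRP2, for uS14m, read 381 and 295 against 359 and 387, a difference of -0.15 ± 0.19. MRP49, for mL61, read 358 and 334 against 325 and 432, a difference of -0.11 ± 0.19. The groups of these 3 overlapped, and all 3 were above 0 after median centring.

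On the other side of 0, MRP10, for mS37, a protein with paired cysteines that is oxidised during import, read 524 and 524 in Snf1-I132G and 462 and 491 in Snf1. Its difference was 0.13 ± 0.15, and it was below 0 after centring on hybridization controls. MRP7, for bL27m near the site of peptide bond formation, read 364 and 489 against 351 and 317. The excess was almost all in replicate 2, and at 0.33 ± 0.20 it did not pass (limma, adjusted p = 0.27).

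Large and small subunits were next set side by side with the MRP genes placed by their uniform names. The 37 tested large-subunit genes had a median log2 difference of -0.26 with 5 lower, and the 27 small-subunit genes a median of -0.25 with 1 lower. The shares called lower, 13.5% and 3.70%, were both below the 17.5% of all tested probe sets. To see whether the 2 subunits moved unequally within an array, each gene's log2 signal was taken relative to its own mean over the 4 arrays and averaged by subunit. The large minus small value was -0.004 and -0.03 in Snf1-I132G and 0.04 and -0.005 in Snf1. The groups overlapped on this measure, and the difference between them was -0.04.

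Proteins with bacterial counterparts were compared with those specific to mitochondria. Among the 40 tested conserved genes 4 were lower and the median was -0.26, and among the 24 mitochondria-specific genes 2 were lower and the median was -0.20. These calls were 10.0% and 8.33%, both below the 17.5% of all tested probe sets. The conserved minus specific value within each array was -0.04 and -0.03 in Snf1-I132G and 0.06 and 0.01 in Snf1. The groups did not overlap, and the difference was -0.07. It was not tested.

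The same-numbered arrays of both groups were treated as pairs, for a reason given with the processing. The median log2 difference of the 65 genes was -0.31 within pair 1 and -0.16 within pair 2. For MRPL genes it was -0.32 and -0.17, for MRPS and RSM genes -0.23 and -0.22, and for MRP genes -0.31 and -0.16. Both pairs put Snf1-I132G lower for 47 of the 65 genes, against 48.0% of all tested probe sets. Both put it higher for 6, against 2486 of the 6956 tested probe sets. The pairs were opposite for 12, against 1132 of the 6956. MRPL16 was among the most even, at -0.79 and -0.81, and MRPL1 among the least, at 0.05 and -0.81.

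**Figure D3:**
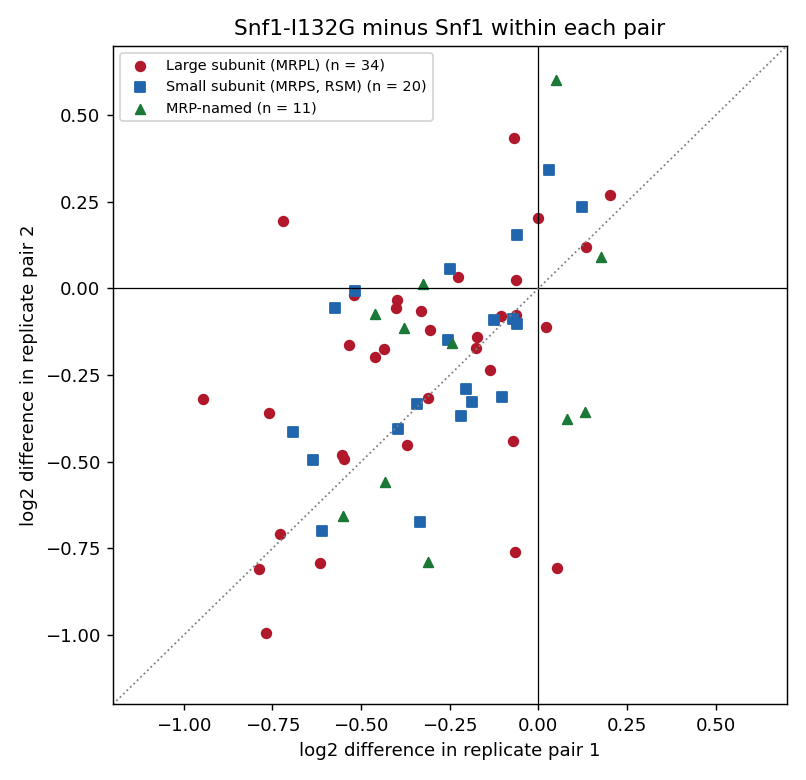
Log2 difference within replicate pair 1 (x axis) against replicate pair 2 (y axis) for the 65 tested genes, with a dotted line of equality. For 47 genes both pairs are below 0, for 6 both are above 0 and for 12 they are opposite. Over all 6956 tested probe sets, not drawn, these counts are 3338, 2486 and 1132.

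With the pair as a block 16 of the 65 genes were lower and none higher, against 28.6% and 19.5% of all tested probe sets. The 16 held all 6 called without the block. They were 9 MRPL, 4 MRPS or RSM and 3 MRP genes, or 24.6% of those tested, so the share was again below the background for lower calls. At an unadjusted p under 0.05 the block had 18 lower and 0 higher, against 32.8% lower of all tested probe sets. The calls depended on single arrays, as the alternatives at the end show. Without replicate 1 of Snf1 the median log2 difference of the 65 genes was -0.21, against -0.13 over all tested probe sets. Without replicate 2 of Snf1 it was -0.25, against -0.071 over all tested probe sets. Without replicate 2 of Snf1-I132G the median log2 difference of the 65 genes was -0.27, against -0.13 over all tested probe sets. Without replicate 1 of Snf1-I132G it was -0.19, against -0.063 over all tested probe sets. MRPL16 differed by -0.81 without replicate 2 of Snf1-I132G and by -0.79 without replicate 1. Under quantile normalization and under median centring only MRPL16 and MRPL35 passed.

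How far below 0 the members lay moved with the scaling of the arrays. As deposited, the 65 genes had a median of -0.25. Quantile normalization put it at -0.10 and median centring at -0.06, and with arrays centred on hybridization controls it was -0.48. The median of all tested probe sets moved alongside, at -0.10, 0.02, 0.09 and -0.33. Centring moves all genes of an array alike, so the members' distance from that median can change only under quantile normalization, where it went from -0.15 to -0.12. That distance also rested on single arrays. Without replicate 1 of Snf1 it was -0.08 for the members and -0.07 for MRPL genes, and the distance from the median of named genes went from -0.09 to -0.02. Genes with a difference below 0 numbered 56, 44, 42 and 63 of the 65 on these 4 scales. Over all tested probe sets the share below 0 was 56.0% as deposited and is not given for the other scales. Genes called lower numbered 6, 2, 2 and 18, against 17.5%, 13.2%, 11.7% and 30.3% of all tested probe sets. Genes lower at an unadjusted p under 0.05 numbered 15, 4, 4 and 36, against 25.9%, 20.5%, 18.1% and 39.1% of all tested probe sets. Higher at that level were 0, 1, 2 and 0 of the 65. Of all calls on the array, rises made up 36.9%, 47.6%, 54.1% and 18.9%.

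**Figure D4:**
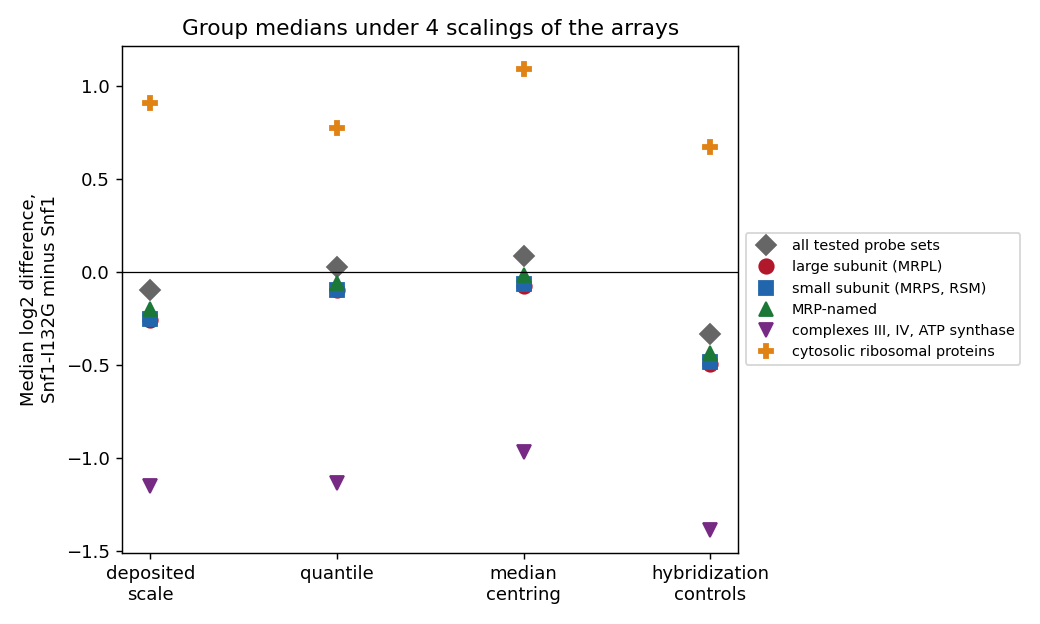
Median log2 difference of each gene group under 4 scalings of the arrays, 1 marker per group. The 3 groups of mitochondrial ribosomal protein genes stay a little below the grey markers of all tested probe sets under each scaling shown, which for both centrings follows from their construction, and between respiratory complex genes and cytosolic ribosomal protein genes.

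Not all mitochondrial ribosomal proteins carry these symbols. Of 14 tested genes for proteins under other symbols 3 were lower, 0 were higher and 11 did not pass, with a median of -0.33. The share called lower was 21.4%, near the 17.5% of all tested probe sets and the 20.0% of named genes. Unadjusted, 6 were lower at a p under 0.05, or 42.9%, against 25.9% of all tested probe sets. EHD3, for mS47, an enzyme of valine breakdown that also sits in the small subunit, read 294 and 298 in Snf1-I132G and 595 and 545 in Snf1 and fell by 0.91 ± 0.16 (limma, adjusted p = 0.012). RTC6, for bL36m, read 521 and 535 against 834 and 828 and fell by 0.64 ± 0.15 (limma, adjusted p = 0.027). MNP1, for bL12m of the stalk that recruits translation factors, read 363 and 375 against 561 and 525 and fell by 0.54 ± 0.15 (limma, adjusted p = 0.050, just under the threshold). In all 3 the groups were apart. VAR1, the ribosomal protein encoded in mitochondrial DNA itself, was at or below a signal of 5.42 on every array and was not tested.

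Soluble factors of mitochondrial translation held larger falls than any ribosomal protein. Of 9 tested factor genes 3 were lower and 6 did not pass, with a median of -0.46, and all 9 differences were below 0. The 3 made up 33.3% of this short list, against 17.5% of all tested probe sets. MEF2, for a mitochondrial elongation factor G-like protein that acts in ribosome recycling, read 151 and 122 in Snf1-I132G and 476 and 437 in Snf1. Its groups were far apart, and it fell by 1.64 ± 0.18 (limma, adjusted p = 0.0044). TUF1, for the factor that brings aminoacyl-tRNA to the ribosome, read 444 and 484 against 1182 and 897 and fell by 1.12 ± 0.19 (limma, adjusted p = 0.012). MEF1, for the elongation factor that moves the ribosome along the message, read 458 and 365 against 763 and 603 and fell by 0.71 ± 0.20 (limma, adjusted p = 0.050, just under the threshold). Among 8 genes of ribosome assembly, RNA modification and membrane attachment the median was 0.01. Of these 1 was lower, or 12.5%, against 17.5% of all tested probe sets. That gene was MBA1, whose product ties the ribosome to the inner membrane, at 310 and 232 against 582 and 483, a fall of 0.94 ± 0.21 (limma, adjusted p = 0.024). Of the 2 genes of mitochondrial transcription, the polymerase gene RPO41 differed by -0.59 ± 0.19, which passed when pairs were blocked (adjusted p = 0.012) and not otherwise (limma, 0.075).

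HAP4 encodes the regulated activating subunit of the CCAAT-binding Hap complex, known for driving genes of respiration. It read 208 and 318 in Snf1-I132G and 1753 and 1799 in Snf1, and fell by 2.71 ± 0.22 (limma, adjusted p = 0.0026). The DNA-binding subunit genes HAP2, HAP3 and HAP5 differed by -0.38 ± 0.19, -0.34 ± 0.17 and -0.19 ± 0.16 and did not pass. PUF3, for an RNA-binding protein known to bind messages of mitochondrial ribosomal proteins, was at or below a signal of 14.5 on every array and was not tested. Whether any of these bears on the ribosomal protein genes was not tested.

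Respiratory complexes and cytosolic ribosomal proteins gave the frame for these values. Of 29 listed genes for structural subunits of complexes III and IV and ATP synthase 28 were lower, with a median of -1.15, and 19 were at least 2-fold lower. Of all tested probe sets 17.5% were lower and 9.33% at least 2-fold lower. COX4, a cytochrome oxidase subunit gene, read 1293 and 1389 in Snf1-I132G and 4137 and 4119 in Snf1. Of 80 cytosolic ribosomal protein genes 65 were higher, against 10.3% of all tested probe sets, and none was lower. Their median was 0.90, on probe sets that near-identical copies can share. RPS22A read 7498 and 7657 against 2702 and 3048. The mitochondrial ribosomal protein genes thus lay between the 2 groups, with no member as low as that median of the complexes and none as high as that of the cytosolic ribosome.

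**Figure D5:**
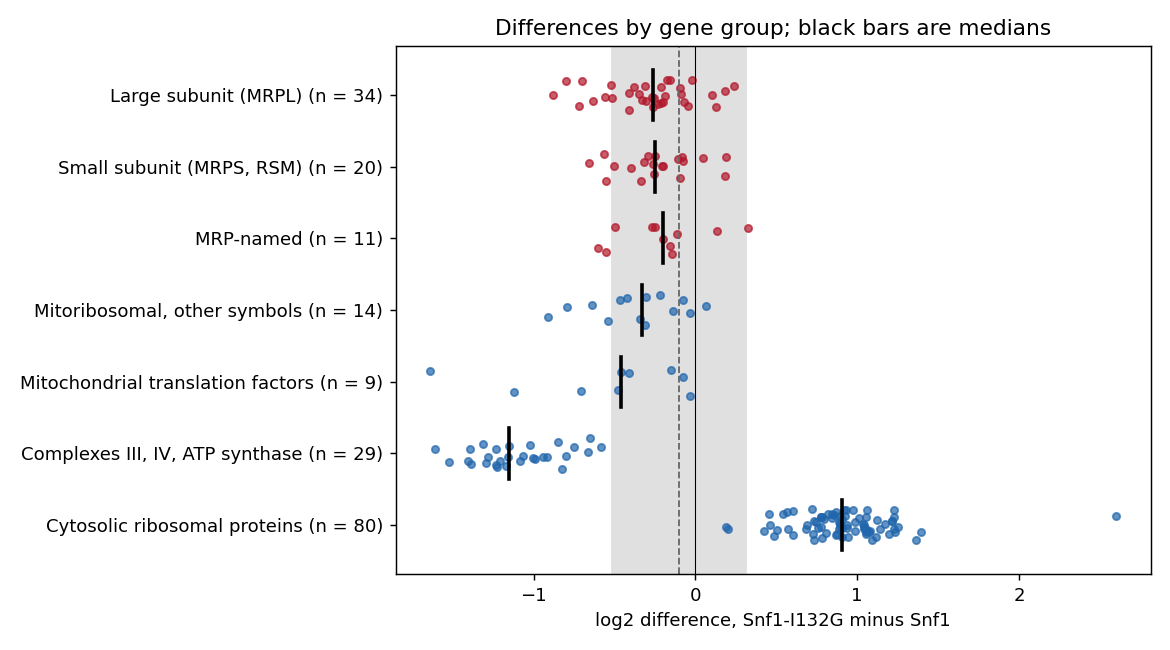
Log2 difference of single genes, Snf1-I132G minus Snf1, by gene group, with black bars at group medians. The dashed line and grey band are the median and the middle 50% of all tested probe sets. Most red points, the mitochondrial ribosomal protein genes, lie within the band, while the genes of complexes III, IV and ATP synthase lie to its left and most cytosolic ribosomal protein genes to its right.

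These contrasts within an array do not depend on a common scaling factor. Mean deviations of the respiratory complex genes minus those of the mitochondrial ribosomal protein genes were -0.44 and -0.39 in Snf1-I132G and 0.42 and 0.42 in Snf1, a difference of -0.84. The cytosolic minus mitochondrial ribosomal value was 0.62 and 0.55 in Snf1-I132G and -0.63 and -0.54 in Snf1, a difference of 1.17. In both contrasts the groups were far apart and the 2 arrays of a group close. They show unequal change and not that the mitochondrial ribosomal protein genes were unchanged.

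Position on the chromosome was looked at through the gene order of RefSeq assembly R64. Of the 65 tested genes 39 had a divergently transcribed protein-coding neighbour, and 35 of these neighbours were tested. Among the 35, 4 were lower, or 11.4%, which is below the 17.5% of all tested probe sets, 0 were higher and 31 did not pass. The 4 were CMI8 beside MRPL28, YJR115W beside RSM7, ATG39 beside MRPL15 and DBP1 beside MRP51, chosen for mention after their values were seen. Their log2 differences were -2.57 ± 0.16, -1.89 ± 0.27, -2.88 ± 0.17 and -1.44 ± 0.18. The 4 ribosomal protein genes next to them differed by -0.41, -0.25, -0.63 and -0.55, and none was called lower. With the pair as a block, MRPL15 and MRP51 were lower (limma, adjusted p = 0.022 and 0.030), while MRPL28 and RSM7 did not pass. In the other direction, URA7 beside MRPL16 differed by 0.79 ± 0.30 and did not pass (limma, adjusted p = 0.11). The 1 pair of members that are direct neighbours, MRPS12 and RSM19, run in the same direction and differed by -0.40 ± 0.14 and 0.19 ± 0.19.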

How the data were processed

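The deposited table holds array signal intensities on a linear scale, 1 per probe set and array, made by the authors with MAS5, per the submitters' processing notes (version not given in the sources used here). With the top and bottom 2% left out, array means were 500.4 to 500.5, so the 4 arrays had been scaled, and a change of most transcripts one way would be spread over the others. Genes were named through the platform annotation. Of 9335 probe sets 60 were controls, 6504 of the others had 1 gene and 328 had several. All 66 members matched RefSeq R64, which gave the uniform ribosomal names and gene order only. Sequences were not used here.

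Log2(signal + 16) of the 6956 probe sets whose mean signal reached the 25th percentile (35.0) was fitted with limma 3.58.1 in R 4.3.3 (eBayes with trend, Benjamini-Hochberg adjustment, threshold 0.05, 2 residual and 3.64 prior degrees of freedom). The fitting code was also run on simulated arrays with noise independent between arrays. That run does not bear on how sure the calls here are. The brightest probe set stood for a gene that had several. Same-numbered arrays share a string in their file labels, which do not say what it is, so a common run is assumed, not certain. Their deviations from the group means correlated at r = 0.513 across probe sets. They were treated as pairs and entered as a block in an alternative.

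Members and lists were chosen with earlier results of these data known. Any member could be named. Arrays are given for the 8 largest differences of each subunit, all MRP genes, calls, and the brightest and dimmest. Comparison lists name calls or the smallest p. RPP1, an RNase P gene that matches the symbol pattern of cytosolic ribosomal proteins, was left out of that list. A planned count of promoter words was not run, as no promoter sequences were used here.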

Additional observations from a re-analysis of the deposited data

How the results depend on the processing

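None of the alternatives run gave a mitochondrial ribosomal protein gene called higher, and the medians of the MRPL, the MRPS and RSM, and the MRP genes stayed below 0 in each. How many were called lower depended on the setting and, with 2 arrays a group, on single arrays. With the replicate number as a block, 9 MRPL, 4 MRPS or RSM and 3 MRP genes were lower, among 1986 probe sets lower and 1356 higher in all. Median centring left 2 MRPL genes and 0 MRPS or RSM genes lower, with medians of -0.074 and -0.067, and -0.015 for MRP genes, while all tested probe sets had 811 lower and a median of 0.087. Quantile normalization left 2 and 0 lower, with medians of -0.10 and -0.10, and -0.060 for MRP genes, against 0.024 over all tested probe sets. Centring on hybridization controls gave 10 MRPL, 6 MRPS or RSM and 2 MRP genes lower, with medians of -0.49, -0.49 and -0.43, among 2110 probe sets lower and a median of -0.33 in all. Without the filter 2 MRPL genes were lower, and 3 without the trend. The median of all tested probe sets was -0.042 without the filter, -0.080 with a filter at the 50th percentile, -0.11 with a pseudocount of 1, -0.075 with a pseudocount of 64 and -0.10 within pair 1. The MRPS and RSM median was -0.20 with a pseudocount of 64, -0.23 within pair 1 and -0.22 within pair 2, and the MRP median was -0.31 within pair 1. Leaving out 1 array gave 0 to 4 MRPL genes lower, 0 to 0 MRPS or RSM genes and 0 to 0 MRP genes, 337 to 663 probe sets higher and 466 to 1061 lower. Their medians then ran from -0.29 to -0.19, from -0.25 to -0.21 and from -0.27 to -0.17, and that of all tested probe sets from -0.13 to -0.063.

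Sign changes were found only for named genes that had not passed. Centring on hybridization controls put MRPL8 at -0.050, MRPL37 at -0.11, MRPL13 at -0.13, MRPS8 at -0.053, RSM19 at -0.047, RSM27 at -0.19 and MRP10 at -0.10. Median centring put MRPL44 at 0.011, MRP2 at 0.038, MRP17 at 0.029 and MRP49 at 0.073, and quantile normalization put MRP2 at 0.020 and MRP49 at 0.043. The mean of both probe sets put MRPL44 at 0.053. Leaving out 1 array took RSM19 from -0.016 to 0.39, RSM27 from -0.072 to 0.17, MRP49 from -0.31 to 0.083 and MRP2 from -0.32 to 0.029. The sign changed without replicate 2 of Snf1 for RSM19, RSM27 and MRP49, and without replicate 2 of Snf1-I132G for MRP2. The causes were not tested. Where 1 array is left out, the lone array of that group is assumed to vary like the other group. The mean of all tested probe sets of a gene counts genes in place of probe sets, and 18.2% of these were lower, with the 6 members called as before.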
